A study of Mus musculus with 8 samples.

Results

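The epithelial cells of EY tongues, in which active YAP1 was induced together with the viral oncogenes E6 and E7, were compared with those of E tongues, which received E6-E7 alone. Cells were kept when they had 1000 to 5500 detected genes, at most 30000 UMIs (counted RNA molecules), at most 7% mitochondrial UMIs, no UMI of the leukocyte gene Ptprc and at least 0.5% of UMIs from Krt5, Krt14, Krt15, Krt13 and Krt6a together. This left 6805 of the 42550 cells of the series: 4055 and 553 in the libraries E1 and E2, and 170 and 2027 in EY1 and EY2. The UMIs of these cells were summed per library, so that each group had 2 values for every gene. The keratins of the gate and Ptprc were not read as results.

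Viable cells sorted from the tongue epithelium of mice went through 3′ droplet sequencing 15 days after induction, with 2 libraries for each of 4 groups. All mice carried Krt14-CreERT and LSL-rtTA, and, by the study's methods, a tetON H2B-GFP reporter. E mice also carried tetON_E6-E7, EY mice tetON_E6-E7 and tetON_YAP1S127A, Y mice tetON_YAP1S127A alone, and N mice none of these oncogenes. Littermates of 8 to 16 weeks of age, balanced for sex, received tamoxifen into the tongue and doxycycline chow in every group, N included. Krt14-driven Cre limits recombination to KRT14+ cells, and because the sort was for viability alone, epithelial cells that had not recombined could enter every sum.

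YAP is a transcriptional coactivator that the Hippo kinases LATS1 and LATS2 hold in the cytoplasm by phosphorylation. The S127A substitution removes a LATS site, so that the protein enters the nucleus and acts through TEAD factors on genes for growth, adhesion and matrix. E6 and E7 of HPV16 disable the p53 and RB tumour suppressors. In stratified epithelium YAP is known for its activity in basal progenitors and in wound repair.

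The kept cells carried epithelial markers outside the gate in all 4 libraries. Epcam, the epithelial adhesion molecule, was at 194 and 199 CPM (UMI counts scaled to library size with TMM factors) in E and at 207 and 251 CPM in EY. The desmosomal plakin Dsp lay between 747 and 833 CPM, with both groups overlapping. Cells with more Krt5 and Krt14 than Krt13 and Krt4 UMIs, a basal-type pattern, numbered 3542 and 482 in E and 153 and 1927 in EY. The libraries were not alike in other ways. The upper limits on genes and UMIs removed 3.11% of the otherwise kept cells of E1, 41.4% of E2, 64.7% of EY1 and 17.7% of EY2. Immune cells, with at least 1 Ptprc UMI and gate keratins under 0.5%, made up 13.0% and 60.7% of the cells within the limits in E, and 84.9% and 24.3% in EY. Epithelial totals were 55154619 and 12106137 UMIs in E, and 2454816 and 37020044 UMIs in EY. EY1 thus rested on the fewest cells, and the counts below were repeated without it. That fit tested 14254 genes and left 1 library in EY. List counts without EY1 have as their base the counts over all genes in the same fit, which were larger than with EY1.

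Active YAP1 added to E6-E7 went with a wide change in the epithelial cells. Of 13555 genes tested, 2228 differed between EY and E at an adjusted p under 0.05 (16.4% of all tested; edgeR's quasi-likelihood test with Benjamini-Hochberg adjustment, all 8 libraries in the fit). Of these, 1081 were higher in EY (7.97%) and 1147 were lower (8.46%). The change was often large, with 639 rises and 843 falls of more than 2-fold. Without EY1, 1844 genes were higher and 1844 lower. The calls rested on the pooled spread of few libraries: 197 genes were called without E1, 3 without E2, 6 without EY2, 1029 without N1, 1050 without N2, and 350 when only the E and EY libraries entered the fit. Most counts per gene list below also fell without E1, E2 or EY2. In the main fit their base is the share over all genes, 7.97% higher and 8.46% lower. Sums over cells cannot separate more cells with a transcript from more transcript per cell, and the shares of cells with a UMI that are given further on also depend on the level per cell.

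Yap1 itself was at 31.5 and 46.1 CPM in E1 and E2 and at 216 and 174 CPM in EY1 and EY2. Both EY libraries were above both E libraries, by 2.33 ± 0.36 on the log2 scale (SE, n = 2 libraries per group; edgeR adjusted p = 0.016). The files list no transgene, and the share of Yap1 UMIs that came from YAP1S127A was not analysed here. With every cell thinned to 2000 UMIs, so that depth was the same, 6.42% (95% Clopper-Pearson interval 5.68 to 7.21) of E1 cells and 8.32% (6.15 to 10.9) of E2 cells had a Yap1 UMI. In EY the shares were 30.2% (23.4 to 37.7) and 27.2% (25.3 to 29.2), against 0 to 2.78% of immune cells in the same 4 libraries. These intervals cover counting error only.

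Among the genes downstream of YAP, 7 of the 24 tested targets on the list were higher in EY and 0 were lower, with a median log2 change of 0.39 against -0.06 over all genes tested. F3, which encodes tissue factor, the starter of coagulation, stood at 13.1 and 11.6 CPM in E and at 199 and 80.0 CPM in EY (log2 change 3.47 ± 0.44). Amotl2, an angiomotin that binds YAP at junctions, stood at 7.54 and 7.01 CPM in E and 48.3 and 61.9 CPM in EY (2.93 ± 0.44). Gadd45b, a stress-response gene, Axl, a receptor tyrosine kinase, Lats2, Dock5 and Tead1 were the other 5 rises. The most used YAP readouts did not pass. Ccn1, a secreted matricellular protein, was at 110 and 69.0 CPM in E and 174 and 157 CPM in EY (edgeR adjusted p = 0.091). Ccn2, its close relative, was at 2.12 and 0.56 CPM in E and 9.75 and 6.38 CPM in EY (edgeR adjusted p = 0.060). Neither gene overlapped between the groups, but 61.0% of all genes tested did not overlap either, 27.1% with EY higher and 33.9% with EY lower. Without EY1, 8 targets were higher and 2 lower.

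The Hippo pathway's own members changed at the level of its partners and brakes, with 6 of 21 tested genes higher and 0 lower. Yap1 itself is 1 of the 6, and its UMIs may include the transgene. The TEAD factors differed among themselves. Tead1 went from 20.8 and 21.0 CPM in E to 56.5 and 68.7 CPM in EY (1.60 ± 0.24), and Tead4 from 2.91 and 1.51 CPM to 11.8 and 16.5 CPM (2.65 ± 0.41), whereas Tead2 and Tead3 did not pass. Vgll3, a TEAD cofactor, was nearly absent from E, at 0.21 and 0.08 CPM, and reached 5.28 and 7.06 CPM in EY. The kinase Lats2, which phosphorylates YAP, and its upstream scaffold Wwc1 were higher too, each by 1.47 on the log2 scale, while Lats1, Nf2, Sav1, Stk3 and Stk4 did not pass. The YAP paralogue Wwtr1 was at 22.9 and 20.7 CPM in E and 31.7 and 28.9 CPM in EY and did not pass (edgeR adjusted p = 0.105). Without EY1 the median log2 change of this list was -0.23, against -0.14 with all 8 libraries.

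The 12 largest named rises came from several functional classes; the rule that named them required that the groups did not overlap. Cnn3, an actin-binding calponin, was at 5.28 and 3.43 CPM in E and at 93.9 and 135 CPM in EY (log2 change 4.68 ± 0.36, edgeR adjusted p = 0.0094). Igf2bp1, an oncofetal RNA-binding protein, was at 0.37 and 0.16 CPM in E, which is 21 and 2 UMIs, and at 19.1 and 24.8 CPM in EY. Tm4sf1, a tetraspanin-like membrane protein, was at 1.51 and 0.64 CPM in E and at 41.8 and 26.6 CPM in EY. Secreted proteins made up most of the rest. Defb1, a beta-defensin, was at 1.81 and 0.64 CPM in E and at 65.8 and 102 CPM in EY, and Orm1, an acute phase protein, at 0.56 and 0.08 CPM and then at 32.1 and 49.9 CPM. Klk12, a secreted serine protease of the kallikrein family, was at 2.59 and 0.88 CPM in E and at 33.7 and 99.4 CPM in EY. Il24, a cytokine of the IL-10 family, was at 1.74 and 0.24 CPM in E and at 42.7 and 56.5 CPM in EY. The others were the chemokine gene Cxcl5, the envelope gene Sprr2f, the glucose and lactate carriers Slc2a3 and Slc16a3, and the long non-coding RNA Mirt1. EY1 was the lower of the EY libraries for 10 of the 12, and Cxcl5 and Tm4sf1 were the exceptions.

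**Figure D1:**
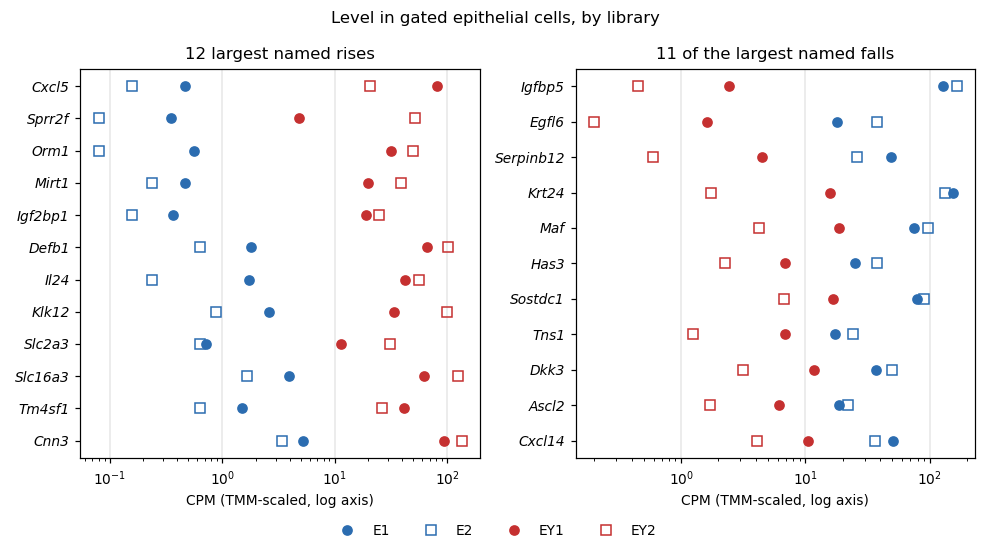
Level of the 12 largest named rises (left) and 11 of the largest named falls (right) in gated epithelial cells, in TMM-scaled CPM on a log axis. Each marker is 1 library, blue for E and red for EY, filled for replicate 1 and open for replicate 2; in every gene both EY libraries lie on one side of both E libraries.

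The falls were led by Igfbp5, a secreted binding protein of insulin-like growth factors. Igfbp5 stood at 127 and 166 CPM in E1 and E2, and at 2.44 and 0.45 CPM in EY1 and EY2, which is 6 and 16 UMIs (log2 change -7.75 ± 0.56, edgeR adjusted p = 0.0090). The share of cells with an Igfbp5 UMI was lower too, as a lower level per cell alone would make it. At 2000 UMIs per cell, 18.9% (17.7 to 20.1) of E1 cells and 20.3% (17.0 to 23.8) of E2 cells had an Igfbp5 UMI, against 0 of 169 EY1 cells and 1 of 2027 EY2 cells (0.049%). The upper limit for the share of EY1 cells with such a UMI was 2.16%, and 0 to 0.78% of immune cells had an Igfbp5 UMI. Igfbp5 was called under all 24 alternatives, leaving out each library included.

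Several of the other named falls encode inhibitors or markers of epithelial progenitors. Sostdc1, a secreted BMP and Wnt antagonist, was at 78.6 and 90.5 CPM in E and at 16.7 and 6.78 CPM in EY. Dkk3, of the dickkopf family, was at 36.8 and 50.1 CPM in E and at 11.8 and 3.15 CPM in EY. The transcription factors Maf and Ascl2, the latter a Wnt-induced regulator of intestinal stem cells, fell by 3.25 and 2.86 on the log2 scale. Has3, a hyaluronan synthase, Cxcl14, a chemokine of resting epithelium, Egfl6, a matrix protein, Tns1, a tensin of focal adhesions, and the serpin Serpinb12 were lower as well. Krt24 was at 154 and 133 CPM in E and at 15.8 and 1.73 CPM in EY. EY2 was the lower EY library for each of these falls, so the size of each fall differed between the animals.

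**Figure D2:**
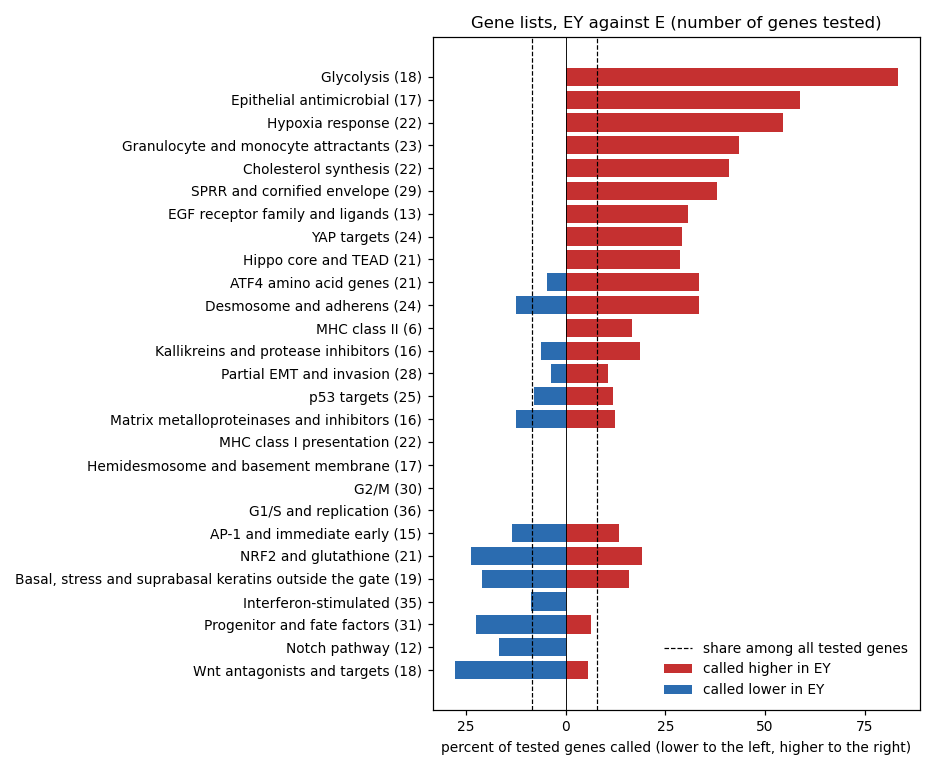
Percent of tested genes called higher (red, to the right) or lower (blue, to the left) in EY than in E, for 27 gene lists with the number of genes tested in brackets. Dashed lines mark the shares over all genes tested, 7.97% higher and 8.46% lower; the glycolysis list stands furthest out, at 83.3% higher.

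The promoters of these leading genes were searched for 2 short strings because TEAD factors and their frequent partner AP-1 bind such sequences. The strings were GGAATG (TEAD) and TGAGTCA (AP-1), each on both strands, in the 250 bases before each RefSeq start site on GRCm38.p6. Of the 12 named rises, 6 had an entry, and of the 12 named falls, 7. The TEAD letters were found for 1 of the 6 rises and 2 of the 7 falls, against 12.6% of all 32851 promoters, and the AP-1 letters for 2 of the 6 rises and none of the falls, against 4.46% of all promoters. The matches are printed with up to 40 bases on either side, as a description of these windows. Capitals mark the matched letters, and each is written 5′ to 3′ in the direction of its gene.
Klk12 (rise), chr7:43769039-43769099, plus strand: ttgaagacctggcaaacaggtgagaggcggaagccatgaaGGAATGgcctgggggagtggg
Mirt1 (rise), chr19:53464890-53464976, minus strand: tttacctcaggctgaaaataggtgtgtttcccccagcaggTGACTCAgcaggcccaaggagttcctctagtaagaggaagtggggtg
Sprr2f (rise), chr3:92364950-92365036, plus strand: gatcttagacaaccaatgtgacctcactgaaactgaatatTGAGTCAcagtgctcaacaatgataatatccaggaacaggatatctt
Igfbp5 (fall), chr1:72875053-72875115, minus strand: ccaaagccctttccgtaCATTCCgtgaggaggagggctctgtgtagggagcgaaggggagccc
Serpinb12 (fall), chr1:106938895-106938956, plus strand: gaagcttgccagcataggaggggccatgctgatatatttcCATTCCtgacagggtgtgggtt

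Glycolysis, which turns glucose into pyruvate and lactate, was the list with the largest share of calls. Of its 18 genes, 15 were higher in EY and 0 lower, with a median log2 change of 1.25. Pgk1, which makes ATP in the pathway's payoff phase, was at 177 and 138 CPM in E and at 558 and 791 CPM in EY (2.10 ± 0.28, edgeR adjusted p = 0.012). Eno1, an enolase, was at 196 and 218 CPM in E and at 502 and 833 CPM in EY (1.69 ± 0.27). An Eno1 UMI was found in 31.0% and 36.9% of thinned E cells and in 66.3% and 73.6% of EY cells, though 37.0% to 62.0% of immune cells also had an Eno1 UMI. The lactate exporter Slc16a3 showed the steepest change in the list, from 3.97 and 1.67 CPM to 62.2 and 124 CPM (4.96 ± 0.68). The median log2 change was 1.32 without E1, 1.25 without E2, 1.47 without EY1 and 1.08 without EY2. In the fit of the E and EY libraries alone, 9 genes were called.

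The hypoxia list moved in the same direction, with 12 of 22 genes higher and 0 lower and a median log2 change of 1.65. Egln3, an oxygen-sensing prolyl hydroxylase, was at 6.53 and 5.34 CPM in E and at 119 and 108 CPM in EY (4.24 ± 0.52). Pfkfb3, which makes the activator of phosphofructokinase, was at 1.15 and 0.88 CPM in E and at 18.3 and 15.3 CPM in EY (3.98 ± 0.35). Ndrg1, a stress-induced gene, and Bnip3, which drives removal of mitochondria, were higher by 2.30 and 2.51 on the log2 scale. For these 4 genes the EY libraries lay close together, unlike many of the largest rises. Some of the rises were in genes that immune cells express more: Pfkfb3 was 10.3 times, Vegfa 5.91 times and Hilpda 14.9 times higher in EY immune cells than in the gated cells, while the level of Egln3 in gated cells was 238% and 241% of that in immune cells of EY1 and EY2. With the stricter gate on immune genes, 13 were higher and 0 lower. The median log2 change of the list was 2.11 without E1, 1.32 without E2, 1.82 without EY1 and 1.54 without EY2.

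Cholesterol synthesis and amino acid genes had smaller shares of calls than glycolysis. Of 22 cholesterol genes, 9 were higher and 0 lower, among them Mvd, an enzyme of the mevalonate pathway, at 7.78 and 5.66 CPM in E and 12.2 and 34.2 CPM in EY. At an unadjusted p under 0.05 there were 20, all of them higher. None was called with only the E and EY libraries in the fit, where the median log2 change was 1.28 against 1.29 with all 8. Of 21 ATF4-linked genes, 7 were higher and 1 lower. Chac1, which degrades glutathione, was at 0.94 and 0.48 CPM in E and at 4.06 and 17.1 CPM in EY, and Trib3, a pseudokinase of the stress response, was called higher too, while the amino acid carrier Slc1a4 was lower. Of 21 NRF2 and glutathione genes, 4 were higher (19.0%) and 5 lower (23.8%), so the list had no common direction. The shares over all genes tested were 7.97% and 8.46%. Hmox1, heme oxygenase, stood at 8.18 and 5.82 CPM in E and 34.1 and 42.2 CPM in EY, and Gclm, a subunit of the enzyme for glutathione synthesis, at 480 and 471 CPM in E and 216 and 148 CPM in EY.

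Genes of the cornified envelope, the protein shell of terminally differentiating keratinocytes, were higher in EY. Of 29 tested, 11 were higher in EY and 0 lower, and the median log2 change was 1.62. Sprr2d, a small proline-rich envelope protein, was at 0.38 and 0 CPM in E and at 6.09 and 21.7 CPM in EY. The scaffold Ppl, periplakin, was at 21.5 and 11.6 CPM in E and at 58.1 and 103 CPM in EY (2.29 ± 0.38). Without EY1, 12 were higher and 2 lower, and 5 were called with the E and EY libraries alone. The SPRR2 genes are near-identical copies in one cluster, and reads may have been split among them.

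Keratins outside the gate moved in both directions, with 3 of 19 higher (15.8%) and 4 lower (21.1%), against 7.97% and 8.46% over all genes tested. Krt17, a keratin of wounded and activated epithelium, was at 1653 and 1078 CPM in E and at 5733 and 9122 CPM in EY (2.44 ± 0.29, edgeR adjusted p = 0.011). In Y the same keratin was at 1993 and 2569 CPM against 1269 and 1411 CPM in N. Krt8 and Krt18, the pair of simple epithelia, were higher as well. Krt8 was at 6.20 and 6.30 CPM in E and at 163 and 38.0 CPM in EY, and Krt18 was higher by 2.89 ± 0.44 on the log2 scale. Both genes are also among those that define the gland-like cells of an alternative, and without those cells their changes were 0.27 and 0.63 and were not called; removing cells by their UMIs of these genes lowers both by construction. None of the other 7 tested gland markers was called, and Wfdc18 was at 49.6 and 104 CPM in E and at 25.6 and 5.30 CPM in EY. Krt24, Krt36, Krt1 and Krt76 were the falls. Krt24 and Krt36 also belong to the markers of taste buds and papillae, of which 4 of 6 tested were lower. Those 11 markers summed to 201 and 151 CPM in E and to 30.9 and 3.43 CPM in EY, and the part of papilla cells in these falls was not tested.

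Junction genes moved in both directions. Of 24 tested, 8 were higher (33.3%) and 3 lower (12.5%), against 7.97% and 8.46% over all genes tested. Tight junction claudins were among the rises: Cldn1 was at 1.90 and 0.40 CPM in E and at 37.4 and 15.1 CPM in EY (4.22 ± 0.76), and Cldn4 at 15.6 and 4.78 CPM in E and at 71.9 and 84.7 CPM in EY (2.90 ± 0.52). The desmosomal cadherins Dsg1a and Dsg2 were lower, by -3.73 and -1.19 on the log2 scale, and so was the adherens junction gene Ctnnb1. Cdh1, E-cadherin, was slightly higher, at 66.8 and 74.4 CPM in E and 103 and 101 CPM in EY. Hemidesmosome and basement membrane genes gave 0 calls by edgeR among 17 tested, with 5 at an unadjusted p under 0.05, and 1 call by DESeq2. Without EY1, 3 of them were lower and 1 higher. The integrin Itga6 was at 216 and 217 CPM in E and at 200 and 137 CPM in EY.

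Fate factors leaned downwards, with 7 of 31 lower (22.6%) and 2 higher (6.45%), against 8.46% and 7.97% over all genes tested. Tfap2c, a factor of the surface ectoderm, was at 41.9 and 46.2 CPM in E and at 13.4 and 11.4 CPM in EY (-1.86 ± 0.20, edgeR adjusted p = 0.011). Sox2, a factor of oral progenitors, was at 106 and 125 CPM in E and at 62.2 and 48.9 CPM in EY (-1.07 ± 0.21). Id2, Id3, Grhl2, Dlx3 and Igfbp5, which is on this list as a progenitor marker, completed the falls. The rises were Ets1, which was over 5 times higher in immune cells, and Elf3, a factor of epithelial differentiation. Trp63, the master factor of stratified epithelium, was at 188 and 295 CPM in E and at 143 and 63.3 CPM in EY, and did not pass (-1.25 ± 0.44, edgeR adjusted p = 0.086). Without EY1 the change of Trp63 was -1.89 and was called. Trp63 UMIs were found in 32.5% and 39.2% of thinned E cells, and in 20.1% and 12.04% of EY cells.

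Called Wnt and Notch genes were lower more often than higher, and called AP-1 and immediate early genes went both ways. Of 18 Wnt genes, 5 were lower (27.8%) and 1 higher (5.56%), against 8.46% and 7.97% over all genes tested. The antagonist Sfrp1 was at 86.2 and 92.8 CPM in E and at 21.5 and 7.94 CPM in EY (-2.79 ± 0.44), whereas the ligand Wnt7b was at 14.8 and 14.9 CPM in E and at 26.4 and 50.2 CPM in EY (1.41 ± 0.38). Without EY1, 10 were lower and 1 higher, and none was called with the E and EY libraries alone. Of 12 Notch genes, 2 were lower (16.7%, against 8.46% over all genes) and 0 higher. They were the receptor Notch1, at 85.2 and 117 CPM in E and 51.2 and 49.5 CPM in EY, and the coactivator Maml2. Of 15 AP-1 and immediate early genes, the transcription factors Fosb and Egr1 were lower, and Ier3 and Maff were higher. The median log2 change of that list was -0.66. At an unadjusted edgeR p under 0.05, 8 were lower and 2 higher, where 4857 of all 13555 genes passed in either direction. Ier3 was 6.68 times higher in EY immune cells than in the gated cells.

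Growth factor ligands of the EGF receptor family were higher, and none of the tested receptors passed. Of 13 tested genes, 4 were higher (30.8%, against 7.97% over all genes tested) and 0 lower, and all 4 encode ligands. Epgn, epigen, was at 6.53 and 1.43 CPM in E and at 33.7 and 50.2 CPM in EY (3.32 ± 0.62). Nrg1, neuregulin, which acts through ERBB3 and ERBB4, was at 23.6 and 16.2 CPM in E and at 49.2 and 89.2 CPM in EY (1.81 ± 0.33). Ereg and Tgfa were the other 2. Areg, amphiregulin, varied more within a group than between groups, at 24.0 and 0.64 CPM in E and 15.8 and 44.2 CPM in EY. None of the 4 was called with the E and EY libraries alone. Of 28 genes of partial EMT and invasion, 3 were higher and 1 lower, shares near those over all genes. Pdpn, podoplanin, a marker of invasive fronts, was at 17.1 and 9.56 CPM in E and at 50.8 and 98.1 CPM in EY (2.48 ± 0.52). Plaur, the urokinase receptor, and the matricellular Thbs1 were the other rises, and Tgfbi, a matrix protein, was lower. Plaur was 25.6 times and Tgfbi 6.69 times higher in immune cells, and the part of immune RNA in both was not tested. Without EY1 the split was 5 higher and 5 lower.

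Genes on the list of granulocyte and monocyte attractants were higher in EY, and so were neutrophil markers, with S100a8 and S100a9 on both lists. Of 23 tested, 10 were higher and 0 lower, with a median log2 change of 2.36. Among the 10, Cxcl2, Cxcl3, Csf3, Saa3, S100a8 and S100a9 were over 5 times higher in EY immune cells than in the gated cells. Cxcl5, which acts on the neutrophil receptor CXCR2, was at 0.47 and 0.16 CPM in E and at 81.3 and 20.6 CPM in EY (6.95 ± 1.66, edgeR adjusted p = 0.034). The E values rest on 27 and 2 UMIs, and the size of the Cxcl5 change depended on the gate. It was 3.23 without upper limits per cell, 4.39 with a keratin gate of 0.2% and 7.33 with a keratin gate of 1%. Tslp, an alarmin of barrier epithelia, was at 4.16 and 2.47 CPM in E and at 59.3 and 30.4 CPM in EY (3.67 ± 0.45). Cxcl2, Cxcl3, Csf3, Il33, Il24, Saa3, S100a8 and S100a9 were the other 8. Without EY1, 9 were called higher, and Cxcl2 was then not called, at 2.55. Of 17 antimicrobial genes, 10 were higher and 0 lower. Slpi, a secreted protease inhibitor, was at 17.9 and 4.46 CPM in E and at 277 and 651 CPM in EY (5.33 ± 0.81), and Lcn2, which binds bacterial siderophores, at 0.59 and 0.48 CPM in E and 102 and 61.5 CPM in EY.

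RNA of neutrophil markers was present in these sums. The 10 neutrophil markers summed to 37.3 and 12.7 CPM in the gated cells of E and to 2255 and 670 CPM in those of EY, and 6 of the 9 tested were called higher. Most of these sums came from S100a8 and S100a9, which are also counted among the attractants. In EY1 and EY2, S100a8 was at 1145 and 389 CPM and S100a9 at 903 and 233 CPM. Retnlg, another of these markers, was at 0.47 and 0.56 CPM in E and at 141 and 25.7 CPM in EY. Of the defining markers, Ly6g had 0 and 1 UMIs in E and 7 and 3 UMIs in EY, and Csf3r 8 and 2 UMIs in E and 5 and 1 UMIs in EY. Before scaling, the list's level in gated EY cells was 1.82% (EY1) and 0.57% (EY2) of its level in immune cells of the same library. For Cxcl2 the same ratio was 1.03% and 0.34%, and for Lcn2 2.03% and 0.84%, which is close to that of the neutrophil list. For Slpi it was 17.6% and 16.2%, for Cxcl3 18.5% and 3.40%, for Cxcl1 35.3% and 22.7%, and for Anxa3, Orm1, Il24, Klk10 and Cxcl5 it was above 100% in both libraries. Saa3, an acute phase protein, averaged 25.4 CPM in gated EY cells and 8425 CPM in EY immune cells, 331 times as much. With cells left out that had any UMI of 10 immune genes, which kept 64 EY1 cells and 1498 EY2 cells, 9 attractants and 8 antimicrobial genes were higher, and 0 and 1 lower. Beyond these values, the part of immune RNA in Cxcl2, Lcn2, Saa3, S100a8 and S100a9 was not tested.

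**Figure D3:**
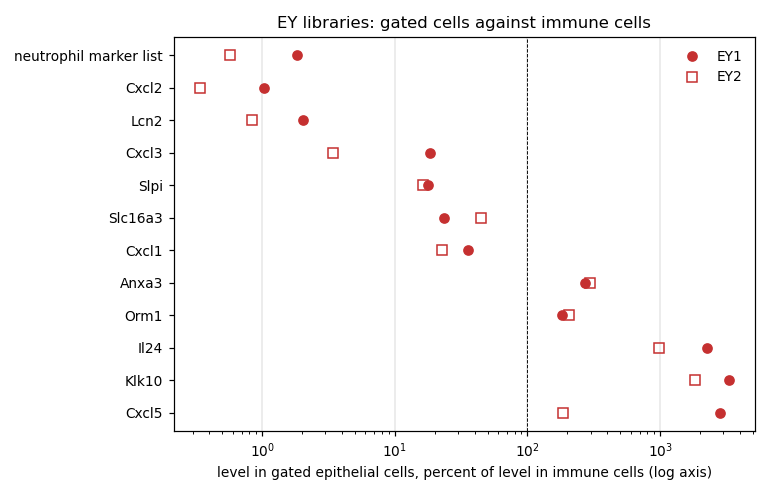
Level in gated epithelial cells of EY1 (filled) and EY2 (open) as percent of the level in immune cells of the same library, log axis; the dashed line marks equal levels. Cxcl2 and Lcn2 lie next to the neutrophil marker list at the left, and Anxa3, Orm1, Il24, Klk10 and Cxcl5 lie to the right of the line.

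The share of cells with a UMI was higher in EY for Anxa3, Slpi and Cnn3, as a higher level per cell alone would make it. Anxa3, annexin A3, was at 16.1 and 13.2 CPM in E and at 194 and 366 CPM in EY (4.26 ± 0.59, edgeR adjusted p = 0.013). At 2000 UMIs per cell an Anxa3 UMI was found in 2.86% (2.37 to 3.42) and 2.89% (1.66 to 4.66) of E cells and in 33.1% (26.1 to 40.8) and 43.9% (41.7 to 46.1) of EY cells. In immune cells of EY the shares were 11.9% and 18.5%. Slpi was found in 0.91% and 1.27% of E cells and in 24.3% and 38.5% of EY cells, below the 54.0% and 53.2% of EY immune cells. Cnn3 was found in 1.06% and 0.90% of E cells and in 15.4% and 20.1% of EY cells, against 1.95% and 2.38% of EY immune cells. Median depth was 12575 and 23570 UMIs per cell in E and 13534.5 and 18451 in EY, and thinning left out at most 2 gated cells of any of these 4 libraries. With 2 libraries on each side the smallest exact permutation p would be 0.33, so shares were not tested.

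In the sums over all gated cells, proliferation genes gave no calls with the limits per cell and the filter on low counts in place. The median log2 change was 0.57 for G1/S and replication and 0.58 for G2/M, against -0.06 over all genes tested. Of 36 genes of G1/S and replication and 30 of G2/M, 0 were called either way by edgeR, with 0 and 1 at an unadjusted p under 0.05, and DESeq2 called 0 as well. Mki67, a marker of cycling cells, was at 198 and 90.3 CPM in E and at 85.7 and 169 CPM in EY, and the groups overlapped. How the UMIs were spread over cells differed for EY2. At 2000 UMIs per cell, a Mki67 or Top2a UMI was found in 28.3% (26.9 to 29.7) of E1 cells, 16.1% (13.1 to 19.4) of E2 cells, 23.7% (17.5 to 30.8) of EY1 cells and 45.8% (43.6 to 48.0) of EY2 cells, against 7.91% to 15.6% of immune cells. At 5 or more such UMIs the order was another, with 4.84% of E1 cells, 0.72% of E2, 0.59% of EY1 and 1.58% of EY2. EY2 thus held many cells with few of these UMIs, and E1 more cells with many. Without the upper limits on genes and UMIs, EY1 lay near EY2: the shares with at least 1 UMI were 30.2% and 21.9% in E and 44.2% and 49.8% in EY. In that setting 17 of 30 G2/M genes and 16 of 36 G1/S genes were called higher, and 0 and 1 lower. Over all genes in that setting, 2810 of 14816 were called higher and 2919 lower. Without the filter on low counts, 13 G2/M genes and 17 G1/S genes were called higher, and 0 and 1 lower. The base there was 1890 higher of 21743 genes. With cells holding any Mki67 or Top2a UMI left out, 21 of 28 tested G2/M genes and 2 of 36 G1/S genes were called higher. None of either list was called lower, and the base was 1017 higher of 11786 genes. That setting kept 1875 and 284 cells in E and 87 and 247 cells in EY.

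**Figure D4:**
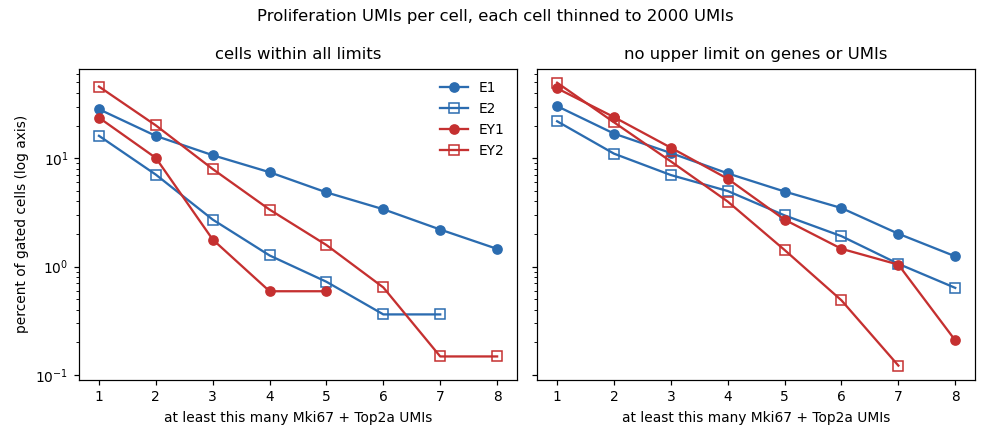
Percent of gated cells (log axis) with at least the number of Mki67 and Top2a UMIs given on the horizontal axis, each cell thinned to 2000 UMIs, for E (blue) and EY (red), replicate 1 filled and replicate 2 open. Left, within all limits, EY2 starts highest at 45.8% and falls below E1 from 3 UMIs on; right, without upper limits, both EY libraries start above both E libraries. Points at 0% are not drawn.

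Interferon-stimulated genes, which respond to viral and DNA-sensing signals, gave few calls, all of them lower in EY. Of 35 tested, 3 were lower (Ifi44, Ddx60 and Dhx58, 8.57%) and 0 higher, against 8.46% lower over all genes, and 12 were lower and 0 higher at an unadjusted p under 0.05. DESeq2 called 6 lower, against 1191 of all 13555 genes, and 6 were lower without EY1. Without upper limits per cell, 18 of the 35 were lower and 1 higher, against 2919 lower of 14816 genes. The list summed to 6457 and 6374 CPM in E and to 5591 and 4347 CPM in EY, and to 1674 and 1714 CPM in N and 2704 and 3272 CPM in Y. The EY sums thus lay below those of E and above those of N and Y. Of 22 genes of MHC class I presentation, edgeR and DESeq2 both called 0, with 2 at an unadjusted edgeR p under 0.05. Of 25 p53 targets 3 were higher (12%) and 2 lower (8%), the latter being Trp53inp1 and Sesn1. These shares are near the 7.97% and 8.46% over all genes tested.

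The last comparison asked whether active YAP1 did the same without E6-E7. Y against N shares no library with EY against E, although all 8 libraries share the estimate of spread. It gave 62 called genes (0.457%), 52 higher (0.384%) and 10 lower (0.0738%), and 55 of the 62 were called in the same direction in EY against E. Of the 1081 genes called higher in EY, 93.9% also had a higher estimate in Y than in N, against 74.8% of all genes with a higher estimate in EY. Their median log2 change was 1.18 in EY against E and 0.43 in Y against N. Of the 1147 called lower, 89.8% had a lower estimate in Y, against 71.5% of all genes with a lower estimate, with medians of -1.38 and -0.41. Called genes were chosen by their size in EY against E, which by itself makes the first median of each pair the larger one. The test of the difference between both effects gave 0 genes by edgeR (smallest adjusted p = 0.231, 1562 genes at an unadjusted p under 0.05) and 89 by DESeq2. It gave 30 genes without EY1.

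Single genes spanned the range between these effects. Igf2bp1 rose by 6.15 in EY against E and by 6.23 in Y against N on the log2 scale. Igfbp5 was at 127 and 98.8 CPM in N and at 9.07 and 11.1 CPM in Y, a change of -3.49 against -7.75 with E6-E7 (difference -4.26 ± 0.65, edgeR adjusted p = 0.241). Tm4sf1 was at 1.30 and 1.91 CPM in N and at 1.74 and 3.37 CPM in Y and was not called there. Cxcl5 ran the other way, at 13.4 and 81.8 CPM in N and at 4.87 and 0.10 CPM in Y.

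**Figure D5:**
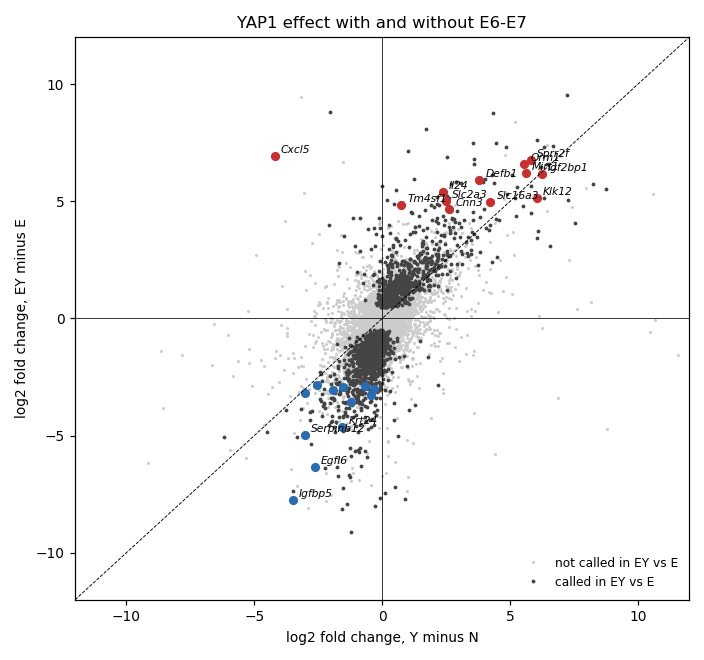
Log2 fold change of EY against E (vertical) and of Y against N (horizontal) for the 13555 genes tested; dark points are genes called in EY against E, red and blue points the 12 largest named rises and falls, and the dashed line marks equal change. Most named genes lie in the quadrants of shared direction, and Cxcl5 lies in the upper left.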

How the data were processed

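Counts of UMIs per gene and cell were deposited by the authors as filtered matrices, per the file headers made with Cell Ranger 5.0.0, and per the labels on mm10. The labels name the v2 kit of the 3′ assay and the study's methods v3.1. Replicates were not pooled, except that the title of N2 holds the numbers of 2 animals.

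UMIs of gated cells were summed per library and tested with edgeR 4.0.16 (filterByExpr, TMM, quasi-likelihood, R 4.3.3) with 1 mean per group over all 8 libraries, and adjusted over all 13555 genes at 0.05. DESeq2 1.42.0 was an alternative. Per-cell shares used cells thinned to 2000 UMIs. Scrublet (scanpy 1.11.5) marked 0 to 1.35% of the cells within the limits per library and none in E1, so its calls had little effect; the 6% of cells with the highest scores were left out in an alternative added after the data were seen. The 4 libraries held from 2454816 to 55154619 epithelial UMIs. At most 5 cell barcodes were shared between any 2 libraries. Labels place no animals in shared batches.

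Named genes were the 12 largest called rises and falls with at least 20 CPM in a group, no overlap between libraries, and at most 5 times higher in immune cells, without gate, predicted, ribosomal, haemoglobin and mitochondrial genes. A study panel and up to 4 genes per list (2 rises, 2 falls, at least 10 CPM) were added; further genes were named after their values were seen. One of the largest falls and 1 list member that this rule names are not reported here. Members and lists were chosen with earlier results of these data known. The fit and the thinning were tested on simulated counts. The p-values rest on a spread pooled over all 8 libraries, 2 per group, and shared across genes. They therefore also draw on the N and Y libraries.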

Additional observations from a re-analysis of the deposited data

Results flagged for a closer look

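Named genes were looked at again where both EY libraries moved one way from E and both Y libraries moved the other way from N. The difference between both effects was tested with edgeR, and no adjusted p passed. None of the 7 genes was called in Y against N, and since they were chosen for their opposite directions, their differences are given as a description. Cxcl5 was higher in EY than in E and lower in Y than in N, with a difference of 11.15 ± 2.14 on the log2 scale. Krt8 differed by 6.04 ± 1.15 and Krt18 by 3.74 ± 0.60. Cldn7 differed by 4.16 ± 0.85. The interferon-stimulated Ddx60 and Dhx58 and the metalloproteinase Mmp2 were called lower in EY, with differences of -1.48, -1.41 and -1.19. Their changes in Y against N were small, at 0.28, 0.41 and 0.08.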

How the results depend on the processing

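No paired analysis was possible because the labels give animal numbers and no replicate number shared between groups. The count for EY against E was 5729 without upper limits per cell, 3918 without the filter on low counts and 350 with the E and EY libraries alone, and from 3 to 3688 with 1 library left out. It stayed within 1.5 times under the other 13 alternatives on cells, scaling and tool, from 1696 to 2652. The count for the difference between both YAP1 effects was 20 without upper limits, 1 with a keratin gate of 1%, 672 without the low-count filter, 89 by DESeq2, and from 0 to 30 with 1 library left out. The count for Y against N was 1504 without upper limits, 127 at a mitochondrial limit of 15%, 113 and 0 with keratin gates of 1% and 0.2%, 114 with the strict immune gate, 94 without gland-like cells, 33 in basal-type cells, 98 without cycling cells, 1208 without the low-count filter, 457 by DESeq2, and from 0 to 98 with 1 library left out.

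Of the 24 largest named rises and falls, 16 were called with the E and EY libraries alone, 8 without E1, 2 without E2 and 2 without EY2, and at least 22 under each other alternative; none changed direction. Mki67 reversed to 0.26 without upper limits and 0.0693 with the strict immune gate, and ran from -0.76 to 0.50 with 1 library left out. The share with a Mki67 or Top2a UMI was 20.2%, 11.03% and 30.7% in E1, E2 and EY2 at 1000 UMIs; unthinned it was 53.8%, 48.6%, 48.8% and 87.8% in E1, E2, EY1 and EY2; without upper limits it was 30.2%, 21.9%, 44.2% and 49.8%. Drawing fewer UMIs per cell lowers such a share, and drawing all of them raises it, by construction. The cause of the other shifts was not tested. Upper quartile scaling moved the median change of all genes from -0.06 to -0.14 and the share of calls that were higher from 48.5% to 42.3%. EY1, with 170 cells, limits what low genes can show.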

Other observations

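Decorin, Dcn, a matrix proteoglycan usually read as a fibroblast marker, was abundant in the gated cells. It was at 932 and 695 CPM in E and at 251 and 28.4 CPM in EY, and was not called (log2 change -2.58, edgeR adjusted p = 0.081). The other 7 fibroblast markers were each at 2.03 CPM or less in all 4 libraries, with Lum, Pdgfra and Pdgfrb at 10 UMIs or fewer in each. Nearly all of that list's sum was therefore Dcn. Macrophage markers, of which 0 of 9 were called, summed to 13.9 and 24.2 CPM in E and to 145 and 12.3 CPM in EY. Haemoglobin genes summed to 89.7 and 27.5 CPM in E and to 392 and 1.84 CPM in EY, so both lists were highest in EY1.

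Among called genes that met the other criteria for the largest named changes (at least 20 CPM in a group, no overlap between libraries), 31 rises and 5 falls were more than 5 times higher in immune cells and were kept out of the largest named changes. Vegfa, Hilpda, Il1rn and Adam8 were among these rises.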
